A study of Mus musculus with 39 samples.

Results

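Embryos cloned from cumulus cells without trichostatin A were compared with fertilized embryos at the 2-cell stage, on 14 of the 39 arrays of the series. The TSA(-) group held 8 arrays of cumulus cell-derived SCNT embryos that had received no trichostatin A, and the IVF group held 6 arrays of embryos made by in vitro fertilization. Both groups were (C57BL/6 × DBA/2)F1, the strain called BDF1, and all embryos had been kept in KSOM medium for 24 h, counted from activation in the clones and from insemination in the IVF embryos. Recipient oocytes and donor cumulus cells came from superovulated BDF1 females aged 8 to 10 weeks. The donor nuclei had been injected into enucleated oocytes, which were then activated with strontium and held in cytochalasin B. Each array measured RNA pooled from 10 embryos, amplified in 2 rounds and labelled with Cy3. The labels do not say whether pools of a group came from separate days or females. The p-values therefore measure the spread between pools, estimated over the 5 groups of the fit. Arrays of unfertilized oocytes (OC, n = 7) and of 500 donor cumulus cells each (Cumulus, n = 4) were used to see where a transcript was held before nuclear transfer. Cumulus clones treated with 5 nM trichostatin A for 8 h, TSA(+), also entered the fit and are not described here. SEs and p-values therefore also carry the spread of OC, Cumulus and TSA(+) arrays.

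After fertilization, a mouse embryo first lives on RNA and protein stored by the oocyte. At the 2-cell stage it starts broad transcription from its own genome, in the step called zygotic genome activation, while much of the stored RNA is degraded. In a cloned embryo the same step has to start from the chromatin of a differentiated cell, placed in oocyte cytoplasm. Genes whose RNA was too low or too high in the clones are therefore described here by whether they belong to the zygotic programme, to the store of the oocyte, to later developmental programmes or to the donor cell. Expression levels are log2 intensities relative to the 75th percentile of the same array, so that 0 is the level of that percentile and 1 unit is a 2-fold step. A gene was called higher or lower when the limma test gave a Benjamini-Hochberg adjusted p under 0.01 over all 39520 probes tested. A pool with fewer embryos of high expression and one with less RNA per embryo cannot be told apart.

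The labels were first checked against the genes of the sex chromosomes, since cumulus donors are female and the IVF pools could hold both sexes. Of 8 Y-linked genes, 7 were lower in TSA(-), and the median of the 8 differences was −6.22. With genes without signal in the clones at their bound it was −4.26, and with normexp −2.3. *Eif2s3y*, a Y-linked subunit of a translation initiation factor, had levels of 0.07 to 1.71 on IVF arrays (median 1.23) and was not well above background on any TSA(-) array. *Ddx3y*, a Y-linked RNA helicase, was likewise well above background on all 6 IVF arrays and on no TSA(-) array. The probe for *Xist*, the RNA that coats the inactive X chromosome, was not well above background on any of the 14 arrays, whereas it was on 4 of 4 Cumulus arrays. Of 43 cumulus and granulosa genes, 1 was higher and 2 were lower, and the summed level of the list was 23.5 to 32.9 times the 75th percentile in IVF and 19.8 to 26.1 times in TSA(-). *Hsd3b1*, a steroid-synthesis enzyme, had a mean level of 7.81 ± 0.29 (SD, n = 4) in Cumulus, against a median of −6.29 in IVF and −5.21 in TSA(-). The called members were *Mgp* (+3.36), which codes for a matrix protein, and *Adamts1* (−3.43) and *Tnfaip6* (−2.33), both linked to cumulus expansion. The call of *Adamts1* was lost without IVF 1, 4, 5 or 6 or TSA(-) 3, 5, 7 or 8 (adjusted p in limma up to 0.016), and that of *Tnfaip6* without IVF 1, 3, 4, 5 or 6 or TSA(-) 1, 4, 5, 6 or 8 (up to 0.0172). Of 13 blood and immune cell markers, *H2-Aa* was higher, *Cd74* was lower, and the sums were 1.67 to 2.12 and 1.64 to 2.15.

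The share of probes well above background was 69.6 to 76.3% in IVF and 66.8 to 77.5% in TSA(-). The mean difference was −0.922 percentage points (exact permutation test over 3003 regroupings, two-sided, p = 0.616). The arrays lay on 8 slides scanned on 5 days, and 3 of the slides and 4 of the days held both groups. Within these days, 96 to 99.94% of the called higher probes and 97.86 to 99.98% of the called lower probes kept their sign, which is partly given by their being called on the same arrays.

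Clones differed from fertilized embryos at a substantial part of the probes, and deep deficits were more frequent than gains of the same size. Of 39520 probes, 3354 were higher in TSA(-) (8.49%) and 4065 were lower (10.3%). The called probes changed by a median of +1.49 and −1.36 on the log2 scale. A change of at least 32-fold was seen for 145 lower probes and for 27 higher ones. The 2 groups did not overlap for 2581 probes with the clones above (6.53% of all probes) and 3275 with the clones below (8.29%). Of the lower probes, 71 were well above background on every IVF array and on none of the 8 TSA(-) arrays, and 20 of the higher probes showed the opposite pattern. Counted by gene, 1683 of 16286 named genes were higher (10.3%) and 2202 were lower (13.5%), with a median of −0.11 over all of them. These shares are the background for every list below. With slide as a fixed block, an alternative chosen after seeing the data, 1775 probes were higher and 2339 lower, and 892 and 1242 named genes. With normexp background correction in place of the processed signal, the median over all probes moved from −0.05 to −0.22 and 6890 probes were lower.

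**Figure D1:**
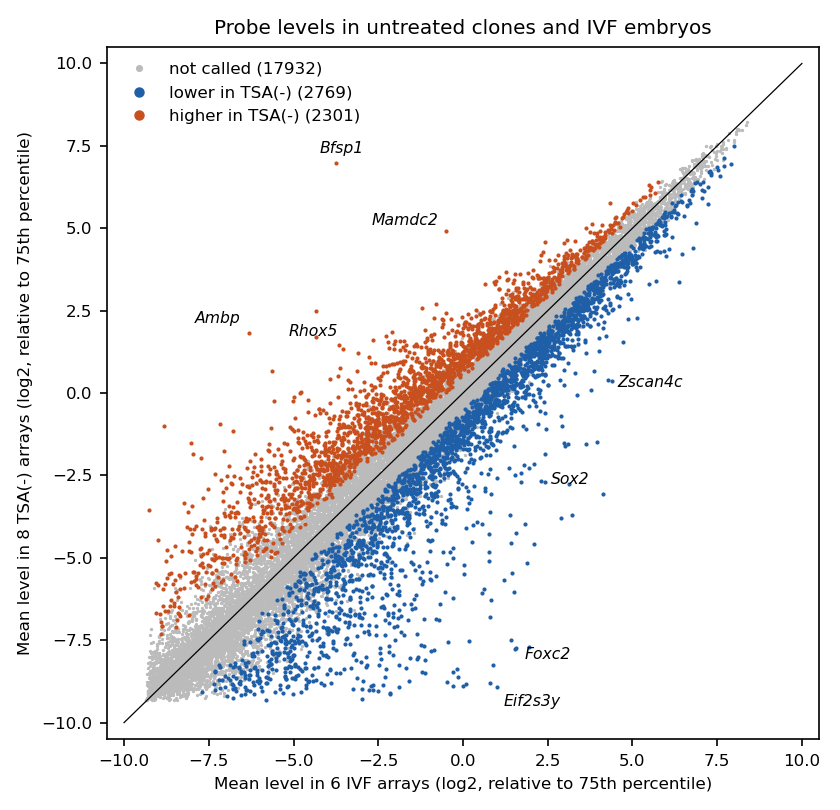
Mean normalized level of 23002 named probes in IVF (x axis, n = 6) and in TSA(-) (y axis, n = 8), both in log2 units relative to the 75th percentile of the array. The 2301 probes called higher and the 2769 called lower lie on either side of the diagonal, and the lower ones include a tail of probes that are bright in IVF and near the floor of the scale in TSA(-).

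The largest deficit in clones was that of the Y-linked *Eif2s3y* (−9.92 ± 0.38), described above with the sex of the donors. Most of the 14 genes with the largest deficits described here code for transcription factors of the forkhead, Zic, Dmrt, homeobox, T-box and bHLH families, while *Bdnf* and *Btbd35f1* are others. They were chosen among called probes without overlap between groups and with signal well above background on all 6 IVF arrays. Their IVF levels were near the 75th percentile. *Foxc2*, a forkhead factor of mesoderm and lymphatic vessels, had levels of 0.73 to 2.29 in IVF (median 1.46) and −9.04 to −4.17 in TSA(-) (median −8.53). The groups were far apart, and 2 of 8 clone pools gave a signal well above background. The difference was −9.30 ± 0.73 on the log2 scale (SE, adjusted p = 8.35e-11). *Foxd1*, a forkhead factor of the kidney stroma, differed by −9.29 ± 0.85. *Dmrta2*, a doublesex-related factor of the developing cortex, differed by −9.59 ± 0.73, with 1 clone pool well above background.

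Where no array of the lower group was well above background, a fold is given as a lower bound, set by the dimmest signal that counted as well above background on those arrays. *Zic1*, a zinc finger factor of the cerebellum, was at least 136-fold lower in TSA(-). *Olig1*, a factor of the oligodendrocyte lineage, was at least 112-fold lower and *Mnx1*, a homeodomain factor of motor neurons, at least 111-fold lower. *Bdnf*, a neurotrophin, was at least 91.8-fold lower by one probe, while its other probe, well above background on 1 of 6 IVF arrays, differed by −1.0 and was not called. The size of these deficits depends on how the background is treated. For the same 14 genes the differences ran from −9.92 to −7.53 on the processed signal and from −5.62 to −4.03 with normexp, and all 14 were called either way.

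**Figure D2:**
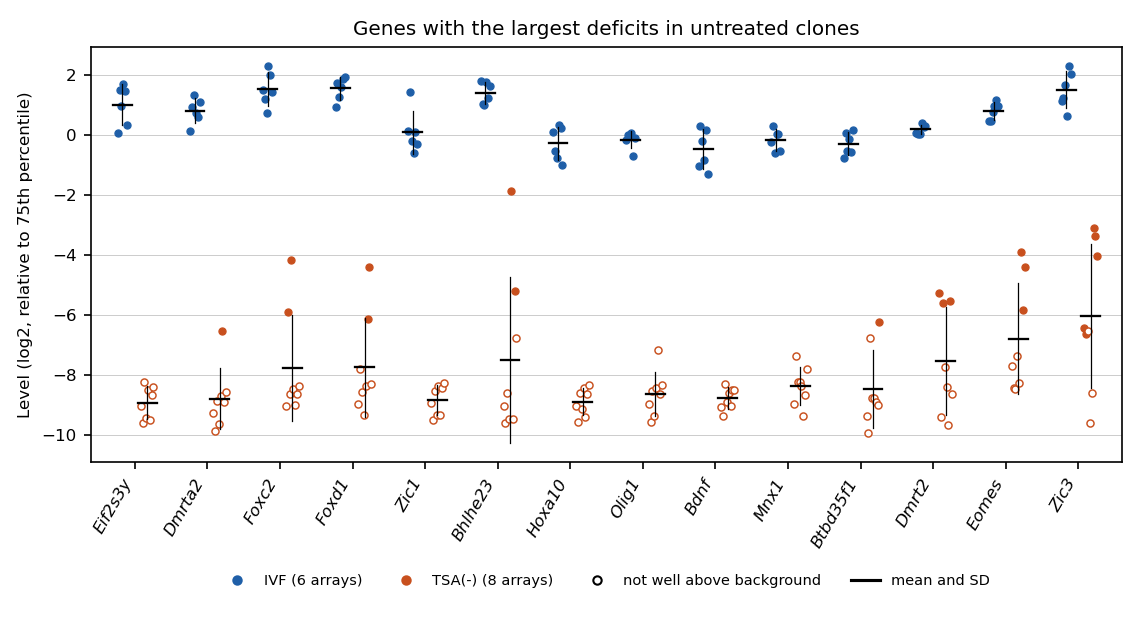
Normalized level (log2, relative to the 75th percentile of the array) of 14 genes with the largest deficits, with 1 point for each of 6 IVF and 8 TSA(-) arrays, open where not well above background, and bars for mean and SD. The IVF points of each gene lie together, whereas TSA(-) points reach the floor, with scattered single pools above it, as for Foxc2 at −4.17.

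*Hoxa10*, a homeobox gene of the posterior body axis and the uterus, shows the pattern in full. Its levels were −0.99 to 0.33 in IVF (median −0.23), and no TSA(-) array was well above background. It was at least 105-fold lower in clones (adjusted p = 2.16e-15). Its promoter is printed as an example from the homeobox genes, with the RefSeq sequence of GRCm38.p6 from 250 bases before to 50 bases after the start at chr6:52240805-52241104 on the minus strand. Capitals mark each CG, of which it holds 12, against a median of 7 over the 27025 promoters in the RefSeq table (quartiles 3 and 21).
Hoxa10: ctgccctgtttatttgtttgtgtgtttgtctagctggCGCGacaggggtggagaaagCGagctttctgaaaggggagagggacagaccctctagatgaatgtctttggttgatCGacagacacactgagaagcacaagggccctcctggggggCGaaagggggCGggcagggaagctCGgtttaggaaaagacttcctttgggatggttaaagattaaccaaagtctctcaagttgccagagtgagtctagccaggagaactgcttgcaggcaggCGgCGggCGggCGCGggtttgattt

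Across homeobox genes the deficit was broad. The list held the main families by symbol (Hox, Nkx, Pax, Lhx, Dlx, Pbx, Pou and others) and left out such genes as Obox, *Rhox5* and *Pknox2*, of which the last was among the largest gains (+6.30 ± 0.31). Of 123 homeobox genes tested, 61 were lower and 2 were higher in TSA(-), and the median difference was −1.42, against −0.11 over all named genes. Counting genes without signal in the clones at their bound gave a median of −1.12, and normexp gave −0.68 with 80 lower genes. On all 6 IVF arrays 86 of the 123 genes had a signal well above background, and on all 8 TSA(-) arrays 43 had. *Hoxd10*, a gene of the posterior axis and limbs, had levels of −1.90 to −0.85 in IVF (median −0.98) and −9.57 to −7.04 in TSA(-) (median −8.52). It differed by −7.26 ± 0.36, and 1 of 8 clone pools was well above background. *Pitx1*, a factor of the pituitary and hindlimb, was at least 28.7-fold lower. The 2 higher genes of this list, which are outside the naming rule and were picked after their values were seen, were *Pbx4* (+1.1) and *Pax2* (+1.74), and the sign of *Pax2* was the opposite within 1 scan day (−0.72).

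Related families shared the direction. Of 78 forkhead, Sox, Gata and Klf genes, 23 were lower and 2 higher, with a median of −0.47. Of 48 bHLH genes, 15 were lower and 1 was higher, with a median of −0.48. *Twist1*, a mesenchymal bHLH factor, differed by −5.89 ± 0.71 and *Bhlhe22*, a neuronal one, by −5.77 ± 0.55. Nuclear receptors did not share it. Of 44 genes, 4 were lower and 2 higher, near the background. Zinc finger genes with Zfp names, the largest family counted, had 56 of 273 lower and 28 higher. The lower counts with slide as a fixed block were 55 for homeobox, 15 for forkhead and related genes, 13 for bHLH and 33 for Zfp genes.

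Factors of the first embryonic lineages were among the genes that were too low. Of 13 trophectoderm factors, 8 were lower and none higher, and of 8 factors of the primitive endoderm, 2 were lower. *Eomes*, a T-box factor of the trophoblast, had levels of 0.46 to 1.15 in IVF (median 0.87) and −8.46 to −3.88 in TSA(-) (median −7.52), and 3 of 8 clone pools were well above background. Its difference was −7.59 ± 0.70 (adjusted p = 1.98e-09). *Cdx2*, which specifies the trophectoderm, differed by −5.48 ± 0.84, and 5 of 8 clone pools were well above background. *Foxa2*, an endoderm factor, was at least 42.3-fold lower. *Tfap2a*, an AP-2 factor, differed by −3.54 ± 0.21, while its other probe, well above background on 1 IVF array, differed by −0.91 and was not called. *Yap1*, a transcriptional co-activator in the trophectoderm, and *Gata6*, a primitive endoderm factor, were not called, with differences of +0.52 ± 0.32 and +0.21 ± 0.18.

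Pluripotency factors as a list stayed near the background, with 3 of 24 lower and 2 higher and a median of −0.16. *Sox2* stood out. Its levels were 1.89 to 2.61 in IVF (median 2.33) and −3.40 to −1.88 in TSA(-) (median −2.67), with no overlap. The difference was −4.96 ± 0.27 (adjusted p = 2.52e-14), and within the 4 scan days it ran from −5.22 to −4.54. *Tbx3*, a T-box factor of pluripotent cells, differed by −3.05 ± 0.53 and *Klf5* by −1.78 ± 0.32. *Tdgf1*, a Nodal co-receptor, and *Lin28b*, an RNA-binding protein, were higher by 1.61 ± 0.34 and 0.71 ± 0.18, the first no longer called with quantile normalization. *Pou5f1*, which is stored in the oocyte, was not called, with −0.21 ± 0.18 (adjusted p = 0.434). Of the lower members, *Sox2* and *Tbx3* were also found in the oocyte, at 1.88 ± 0.74 and 1.87 ± 0.63 in OC (SD, n = 7). *Klf5* was at −5.67 ± 0.87 there. *Nanog* was low in both groups and was not called, with +1.45 ± 0.49 (adjusted p = 0.0273).

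Genes that are known to be switched on at the 2-cell stage were mostly too low in clones. Of 25 such genes tested, 17 were lower and none was higher, and the median difference was −1.06. Signal was well above background for all 25 genes on each of the 14 arrays. In the oocyte, 17 of the 25 were well above background on every OC array and 3 on none. For most of these genes, stored and newly made RNA can therefore not be told apart. The median level of the list was 3.55 to 4.31 on IVF arrays and 1.60 to 3.20 on TSA(-) arrays, so that the groups did not overlap. Their summed level was 746 to 942 times the 75th percentile in IVF and 361 to 642 times in TSA(-). A fixed block for slide left 11 genes lower.

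*Zscan4c*, of the cluster that marks a telomere-lengthening state of 2-cell embryos, had the largest deficit. Its levels were 3.93 to 4.95 in IVF (median 4.19) and −2.25 to 1.62 in TSA(-) (median 0.62), without overlap. The difference was −3.88 ± 0.55 (adjusted p = 3.27e-06), and −4.63 with the other probe. The genes of this cluster are nearly identical, so that a probe may bind more than one of them. The promoter of *Zscan4c* is printed as the zygotic gene with the largest deficit, from chr7:11005495-11005794 of GRCm38.p6 on the plus strand. Capitals mark its 4 CG and a TATAAA, which was searched on either strand and occurs in 14.2% of the 27025 promoters.
Zscan4c: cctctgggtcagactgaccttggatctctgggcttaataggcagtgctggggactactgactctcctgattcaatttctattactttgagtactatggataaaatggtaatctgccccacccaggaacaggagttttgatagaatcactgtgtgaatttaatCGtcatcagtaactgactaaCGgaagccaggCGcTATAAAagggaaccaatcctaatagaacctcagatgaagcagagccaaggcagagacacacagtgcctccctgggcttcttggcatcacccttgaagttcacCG

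*Obox3*, a homeobox gene of oocytes and early embryos, had levels of 6.06 to 6.91 in IVF and 2.13 to 6.18 in TSA(-), so that the groups overlapped. It differed by −2.23 ± 0.45, and the call was lost with slide as a fixed block. *Obox1* (−1.01) and *Obox5* (−0.72) were also lower, whereas *Obox6* was not called, with −0.03 ± 0.28. *Spic*, an ETS factor, had levels of 3.55 to 4.28 in IVF and 1.63 to 2.57 in TSA(-), and differed by −1.90 ± 0.44 (adjusted p = 0.00154). Its call was lost with Tukey's HSD as the test. *Usp17la*, a deubiquitinase, differed by −1.88 ± 0.29, and *Tcstv1*, a 2-cell gene of chromosome 13, by −1.64 ± 0.26. *Zfp352*, a zinc finger gene, differed by −1.06 ± 0.22. The heat shock genes *Hspa1a* and *Hspa1b*, which are among the first transcribed after fertilization, differed by −1.70 ± 0.34 and −1.74 ± 0.31. One other probe of *Hspa1b*, dim in both groups, differed by +0.86 and was not called. The mRNAs of *Hspa1a* and *Hspa1b* are nearly identical and may share a probe.

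Other zygotic genes lay closer to the threshold or did not pass it. *Eif1ax*, an X-linked translation initiation factor, differed by −0.92 ± 0.24, while its other probe differed by +0.63 and was not called. The autosomal *Eif1a* differed by −1.02 ± 0.32 (adjusted p = 0.0164), and by +0.10 with its other probe, and neither probe was called. *Usp17lc* (−1.6, adjusted p = 0.0403), *Tdpoz1* (−0.89, adjusted p = 0.06) and *Kdm5b* (−0.74, adjusted p = 0.119) were not called. *Sp110* (−0.26), *Eif1ad* (+0.12) and *Spz1* (+0.08) were not called either. Over the arrays left out in turn, the calls of *Tcstv3* (−1.22 to −0.91), *Arg2* (−1.06 to −0.88) and *Eif1ax* (−1.04 to −0.86) were lost. For *Eif1ax* this happened without IVF 1, 2, 5 or 6 or TSA(-) 2, for *Tcstv3* without IVF 1, 2, 3, 4 or 6 or TSA(-) 1, 4 or 5, and for *Arg2* without any but IVF 1 and TSA(-) 6, 7 and 8.

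**Figure D3:**
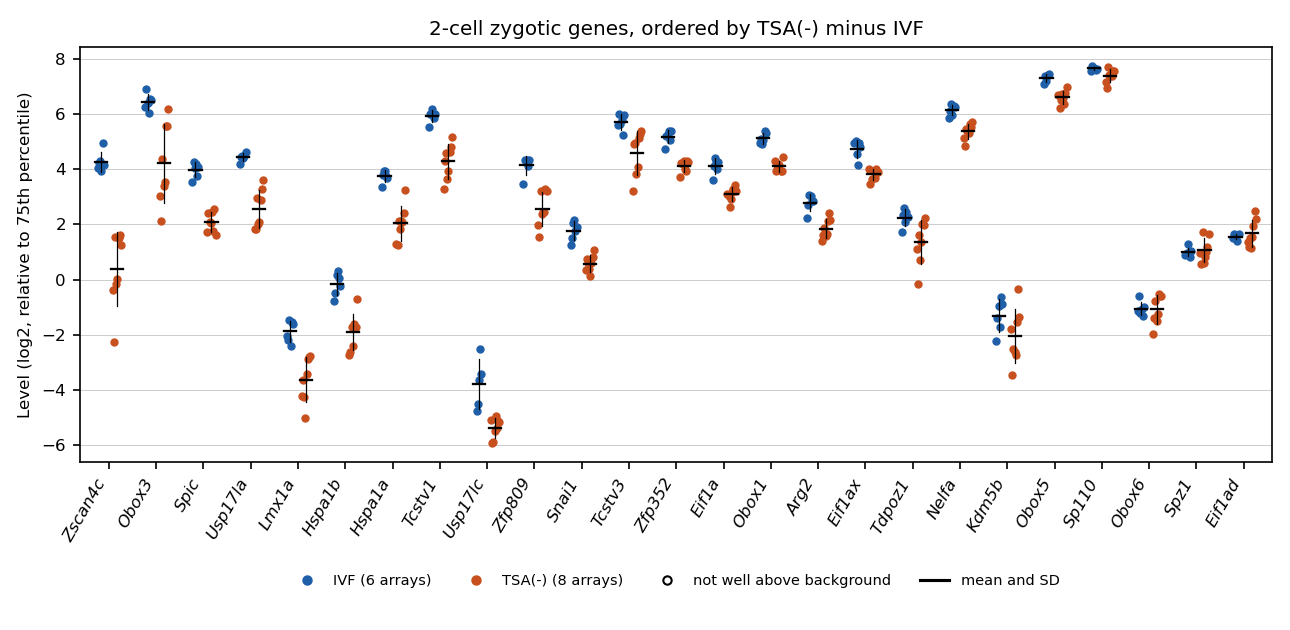
Normalized level (log2, relative to the 75th percentile of the array) of 25 genes known to be activated at the 2-cell stage, with 1 point for each of 6 IVF and 8 TSA(-) arrays, open where not well above background, and bars for mean and SD. For most genes the TSA(-) points lie below the IVF points, with 17 genes called lower, and the points of Obox6, Spz1, Eif1ad and Sp110 overlap.

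None of the oocyte-stored transcripts listed was called higher in the clones, and part of them were lower. Of 46 oocyte and maternal-effect genes, 14 were lower, with a median of −0.42. Their summed level was 2784 to 3171 times the 75th percentile in IVF and 2257 to 2657 times in TSA(-). *Nlrp4f*, of a family of oocyte proteins, had levels of 6.94 to 7.42 in IVF and 5.44 to 6.08 in TSA(-), and differed by −1.49 ± 0.15. *Zar1*, a maternal-effect gene, differed by −1.28 ± 0.17, *Ooep*, a subunit of the subcortical maternal complex, by −1.30 ± 0.27, and *Nobox*, an oocyte homeobox factor, by −1.25 ± 0.16. Of 8 oocyte Nlrp genes, 5 were lower. *Gdf9* and *Zp3*, a secreted factor and a zona pellucida protein, were not called, with −0.29 ± 0.14 and −0.42 ± 0.24. *H1f8*, the linker histone of the oocyte, was lower by 1.03 on the log2 scale, and *H3f3a*, which codes for histone H3.3, by 1.13.

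Part of the immediate early genes, which respond first to growth factors, were low as well. Of 21 immediate early genes, 6 were lower and none higher, with a median of −0.57, and 4 were lower with a fixed block for slide. *Fos*, a subunit of AP-1, had levels of −0.30 to 0.63 in IVF (median 0.35) and −4.94 to −2.14 in TSA(-) (median −3.16). The difference was −3.45 ± 0.31 (adjusted p = 9.61e-10). *Dusp6* and *Dusp4*, phosphatases of MAP kinases that are induced by the same pathway, differed by −2.30 ± 0.21 and −2.29 ± 0.30. *Jun* was well above background on 4 of 6 IVF and 4 of 8 TSA(-) arrays and was not called (−1.18 ± 0.77). *Fos* was high in the donor cells, at 5.66 ± 0.17 in Cumulus (SD, n = 4). *Pmaip1*, an apoptosis gene that p53 induces, fell by 3.95 ± 0.58 among 22 p53 and stress target genes, of which 4 were lower and 3 higher. A separate list of cyclins and CDK regulators had 4 of 21 lower and 1 higher, with a median of −0.07. Its lower members included cyclin D1 (*Ccnd1*, −2.07 ± 0.39) and the CDK inhibitor *Cdkn2c* (−1.47 ± 0.21).

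Genes of the X chromosome were more often lower than those of any autosome. Of 574 X-linked genes, 19.7% were lower and 6.27% higher, with a median of −0.28. Over the 19 autosomes, 11 to 16.7% were lower and the medians ran from −0.22 to −0.06. With slide as a fixed block, 9.93% of X-linked genes were lower and 5.98 to 10.1% of autosomal ones, so that the X chromosome was then inside the autosomal range. The IVF pools could hold male embryos and the clones could not, and the effect of embryo sex on these shares was not tested. Within X-linked clusters, 7 of 14 Mage genes, known from the germ line and tumours, were lower and none higher, as *Magea8* with −2.63 ± 0.23. *Xlr*, of a lymphocyte and germ-cell family, differed by −2.37 ± 0.49. *Rhox5*, a homeobox gene of the reproductive tract, was the only member of these clusters called higher, with +4.88 ± 0.76. Its levels were −6.95 to −1.05 in IVF and −1.20 to 2.46 in TSA(-), overlapping by 1 clone pool, and it was at 1.83 ± 0.98 in Cumulus (SD, n = 4).

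The genes that were too high in clones were of mixed function and included products of specialized tissues. *Bfsp1*, which codes for the lens protein filensin, changed more than any other named gene. Its levels were −6.09 to −2.56 in IVF (median −3.41) and 6.74 to 7.27 in TSA(-) (median 7.0). The groups were far apart, and the clone pools lay close together. The difference was +10.73 ± 0.43 (adjusted p = 3.8e-17), and within scan days it ran from +9.31 to +11.44. *Bfsp1* was at 0.04 ± 1.11 in OC (SD, n = 7) and −3.05 ± 0.51 in Cumulus (SD, n = 4), so that both means were below every clone pool. The promoter of *Bfsp1* is printed because this gene had the largest gain, from chr2:143863124-143863423 of GRCm38.p6 on the minus strand. Capitals mark its 4 CG, and TATAAA was not found in this window.
Bfsp1: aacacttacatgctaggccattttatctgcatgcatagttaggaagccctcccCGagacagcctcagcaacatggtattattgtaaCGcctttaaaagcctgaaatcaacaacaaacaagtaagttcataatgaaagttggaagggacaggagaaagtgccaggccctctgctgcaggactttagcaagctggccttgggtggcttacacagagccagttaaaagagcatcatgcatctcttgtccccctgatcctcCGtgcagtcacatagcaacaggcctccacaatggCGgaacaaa

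*Ambp*, which codes for a plasma protein precursor, had levels of −7.61 to −5.35 in IVF and 1.00 to 2.48 in TSA(-), and differed by +8.15 ± 0.40. *Slc39a8*, a zinc transporter, was at least 65.2-fold higher in TSA(-) by a probe not well above background on any IVF array. Its other probe was well above background on all 6 IVF arrays and differed by +6.84 ± 0.55. Genes known from photoreceptors were in the group, with *Grk1*, the rhodopsin kinase, at +6.50 ± 0.55 and *Pdc*, which codes for phosducin, at least 11-fold higher. *Gabrb2*, a subunit of the GABA receptor, differed by +6.22 ± 0.64. *Dffb*, the nuclease of apoptotic DNA fragmentation, differed by +6.12 ± 0.32, and *Ripk3*, the kinase of necroptosis, by +6.03 ± 0.64. Some were well detected before nuclear transfer. *Mamdc2* had levels of −1.31 to −0.16 in IVF, 4.56 to 5.03 in TSA(-) and 6.55 ± 0.62 in OC. *Gabrb2* was at 1.63 ± 0.87 in OC. *Ripk3* was well above background on no OC array and was at −0.16 ± 0.51 in Cumulus. *Mdfic*, a regulator of MyoD family factors, was at 3.74 ± 0.38 in Cumulus and differed between clones and IVF by +5.28 ± 0.60. With normexp the differences of the 15 genes ran from +1.38 to +9.80, against +5.12 to +10.73 here, and all 15 were called.

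**Figure D4:**
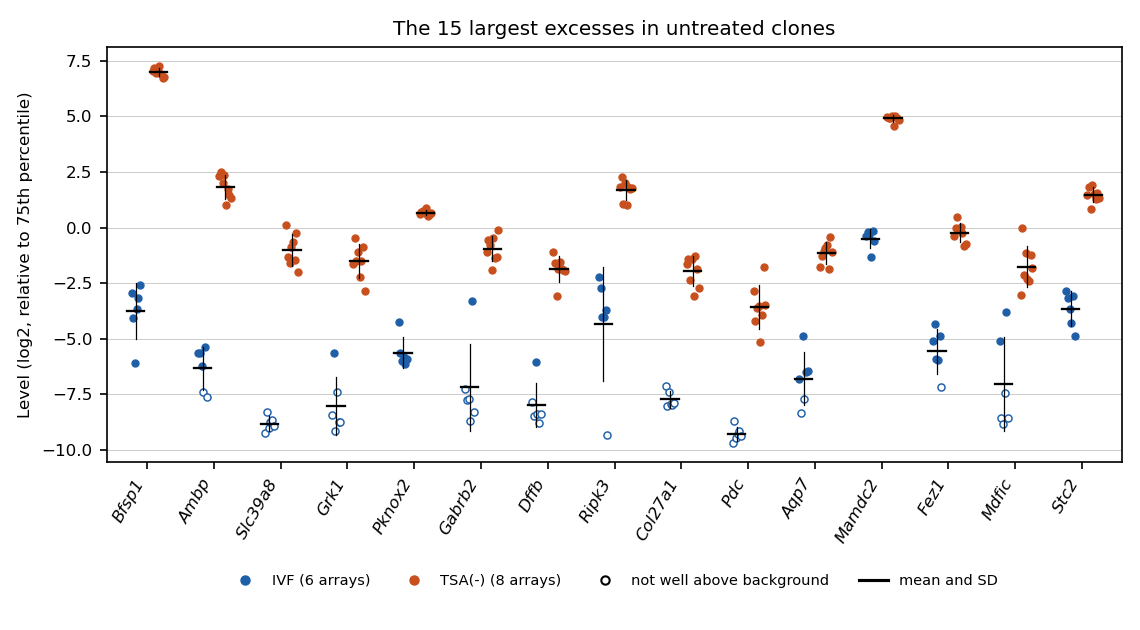
Normalized level (log2, relative to the 75th percentile of the array) of the 15 genes with the largest gains, with 1 point for each of 6 IVF and 8 TSA(-) arrays, open where not well above background, and bars for mean and SD. The genes were chosen among probes whose groups do not overlap, so that all TSA(-) points lie above the IVF points of the same gene. The TSA(-) points of Bfsp1 lie within 6.74 to 7.27.

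Genes of the proteasome, the protease complex that degrades ubiquitin-tagged proteins, were higher as a group. Of 38 subunit genes, 17 were higher and 2 lower, a share of 44.7% against 10.3% of all named genes, and the median was +0.51. The summed level was 276 to 310 times the 75th percentile in IVF and 366 to 423 times in TSA(-), without overlap. *Psma6*, a subunit of the catalytic core, had levels of −1.51 to −0.88 in IVF (median −1.0) and 1.30 to 1.80 in TSA(-) (median 1.53). The difference was +2.67 ± 0.17 (adjusted p = 9.76e-13). *Psma4*, of the same ring, differed by +1.56 ± 0.15. The lower members were *Psmd10* (−1.35) and *Psmb6* (−0.81), and *Psmb5*, a catalytic subunit, was not called (−0.23 ± 0.25). A fixed block for slide gave 12 higher and 1 lower, and with quantile normalization 20 and 2.

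Nuclear genes of oxidative phosphorylation followed the same direction to a smaller degree, with 19 of 82 higher, 5 lower and a median of +0.15. *Uqcr11*, a subunit of complex III, differed by +1.76 ± 0.21 and *Sdhb*, a subunit of complex II, by +1.49 ± 0.20. *Ndufv3*, a subunit of complex I, differed by +1.88 ± 0.22, while its other probes differed by −0.42 and −0.16 and were not called. *Cox8c*, a testis form of a complex IV subunit, was lower by 3.45 ± 0.72. A fixed block for slide gave 10 higher and 2 lower. Of 24 heat shock and chaperone genes, a list without *Hspa1a* and *Hspa1b*, which were lower, 6 were higher and 1 lower. The lower one was *Hspa2*, a chaperone of the germ line, with −1.6 ± 0.20. *Hspa4*, a co-chaperone, differed by +1.59 ± 0.16, although 1 of its other probes was not called (−0.14), and *Tcp1*, a subunit of the cytosolic chaperonin, differed by +0.90 ± 0.13.

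Of 15 genes for the H3K9 methylation machinery, which writes, reads and erases a repressive histone mark, 5 were higher and none lower, with a median of +0.24. *Cbx5*, which codes for the reader HP1 alpha, had levels of −1.18 to 0.04 in IVF and 1.13 to 1.5 in TSA(-), and differed by +1.91 ± 0.21. Its other probes differed by +1.1, which was called, and by +0.42, which was not. *Ehmt1*, a methyltransferase, differed by +1.62 ± 0.24, and its partner *Ehmt2* by +0.63 ± 0.15. The demethylase *Kdm4b* differed by +1.52 ± 0.34. *Suv39h1* and *Setdb1*, further methyltransferases, were not called, with +0.24 ± 0.25 and −0.49 ± 0.21. With slide as a fixed block, 2 of the 5 were still called, and *Ehmt2* and *Kdm4b* were not. The lists of Polycomb genes (1 higher, none lower of 23) and of TSA-sensitive deacetylases (1 lower of 10) stayed near or under the background.

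**Figure D5:**
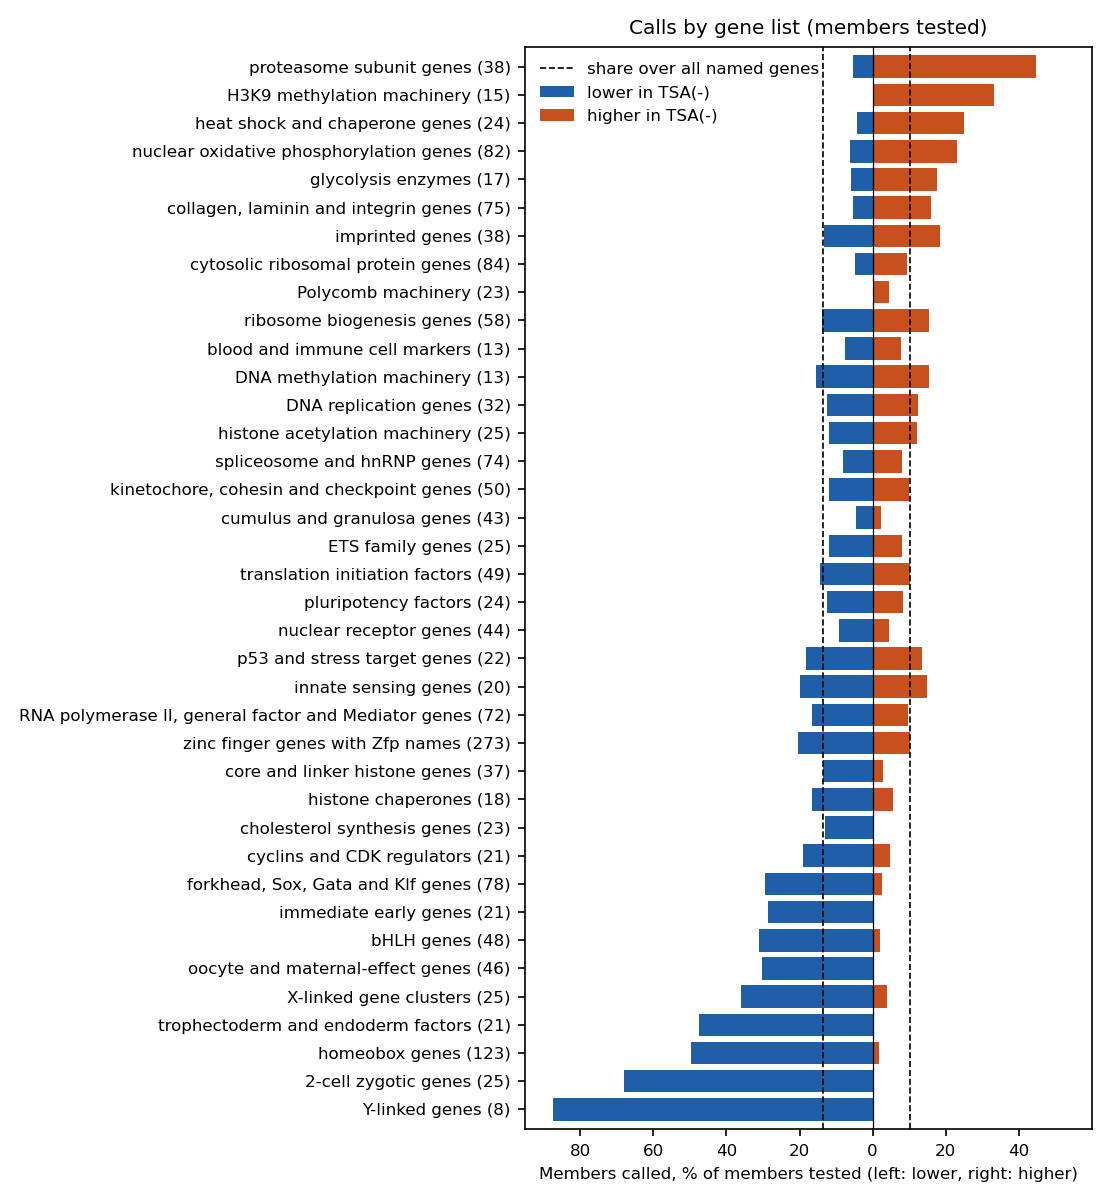
Share of the tested members of each gene list called higher or lower in TSA(-) than in IVF, for lists with at least 8 members tested, beside the 10.3% higher and 13.5% lower over all 16286 named genes. Y-linked genes (87.5%), 2-cell zygotic genes (68%), homeobox genes (49.6%) and trophectoderm and endoderm factors (47.6%) have the largest lower shares, and proteasome genes (44.7%) the largest higher share.

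The probes were then classed by where their transcripts were found before nuclear transfer, from the difference between Cumulus and OC arrays. Calls of this difference came from the limma fit of 5 groups, where the spread of a probe was estimated on embryo arrays too. The classes are therefore not independent of the calls between clones and IVF embryos. Of the 3354 probes that were higher in clones, 43.8% were higher in Cumulus than in OC, compared with 23.4% of all probes. A further 32.5% of them were lower in Cumulus than in OC. Of the 4065 lower probes, 21.9% were higher in Cumulus than in OC and 52.2% lower, compared with 44.4% of all probes. No signal well above background on any OC or Cumulus array was seen for 9.45% of the lower probes, 5.07% of the higher ones and 14.4% of all. The Cumulus arrays lay on 1 slide read by another scanner model and software version, which cannot be told apart from cell type. The classes moved with the scaling, and the share higher in Cumulus was 49.2%, 26.1% and 27.8% for higher, lower and all probes with quantile normalization, and 36.4%, 18.3% and 18.8% with normexp. The share lower in Cumulus was 46.5%, 68.8% and 68.9% with normexp, so that lower probes then did not stand apart from all probes.

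The clone pools differed among themselves in how many of the deepest deficits still gave a signal. Of the 145 probes lower by at least 32-fold, which were chosen on these arrays, 32 to 64 were well above background on a clone array (22.1 to 44.1%), and all 145 were on each IVF array. Over 23455 probes well above background on all 14 arrays, the median SD was 0.36 in TSA(-) and 0.31 in IVF, given without a test. Probes without signal in some pools are left out of these SDs. *Sema6b*, a semaphorin, was not called (+1.49, adjusted p = 0.263 in limma) and varied among the clones, with −4.48 to 1.34 in TSA(-) and −3.38 to −2.99 in IVF. *Pdk2*, a kinase that restrains pyruvate dehydrogenase, ranged from −5.20 to 2.57 in TSA(-), against −5.95 to −3.37 in IVF. *Pramel39* ranged from −4.44 to 0.93 in clones and from 3.56 to 4.48 in IVF, so that every clone pool was below every IVF pool although the clones varied widely.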

How the data were processed

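RNA of embryo pools, oocytes and cumulus cells was hybridised to 1-colour Agilent whole mouse genome arrays. The authors deposited scanner files with background-subtracted processed intensity values from Agilent Feature Extraction (9.5.3.1, and 10.5.1.1 for the Cumulus arrays per the file headers), and a table of log2 values that tracked the scanner files at r of 0.9996 or more and served as an alternative. The 75th percentile of an array's log2 values was subtracted from them, and probes with an intensity of 10 or more on at least 1 embryo array were tested. Control spots and 1820 outlier values were left out and spots of a probe were averaged. This gave 41174 probes, of which 39520 were tested and 23374 carried a gene symbol, matched through the accession in the files to RefSeq. Groups were taken from the sample labels. The 5 groups IVF, TSA(-), TSA(+), OC and Cumulus entered 1 limma fit (limma 3.58.1, R 4.3.3), with Benjamini-Hochberg adjustment. Tables and figures were made with Python 3.11.15, pandas 2.3.3, scipy 1.17.1 and matplotlib 3.10.9.

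The members and lists were chosen with earlier results of these data known. The naming rule took the 15 genes with the largest difference in each direction among called probes without overlap between groups and with signal well above background throughout the higher group, up to 4 called and 2 defining uncalled members of each list, all 2-cell zygotic genes, *Xist*, *Eif2s3y*, *Ddx3y* and the 6 genes with the largest extra SD in TSA(-). Some items are not reported here, not every such gene is printed, and genes whose call was lost without a single array are mostly counted. Genes outside the rule (*Igf2r*, *Lin28b*, *Pax2*, *Pbx4*, *Psmb6*) were named after their values were seen. In simulated data of 39520 probes with 100 changes of each size, 37% of changes of 1 log2 unit and 71% of changes of 2 units were recovered. There was 1 false call. Far fewer probes changed there than were called here, which makes the adjusted threshold stricter. The simulation also gave all groups the same spread and held no slide effect. These shares therefore do not measure recovery or false calls in the real comparison. The alternatives tried were other scalings, normexp, other filters, Tukey's HSD, blocks for slide, scan day and replicate number, and each array left out. Tukey's HSD was adjusted over all probes tested, without the ANOVA step of the paper. The number of arrays limits the precision. Promoters are from the RefSeq table of GRCm38.p6, and probe sequences were not used here.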

Additional observations from a re-analysis of the deposited data

Results flagged for a closer look

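In 28 of 414 groups of arrays examined over the named genes, 1 array stood apart from the others of its group, by a gap above Dixon's critical value at 95%. Chance gives about 5% of groups. All values are levels in log2 units relative to the 75th percentile of the array, each followed by the range of the other arrays of the group.

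Among TSA(-) pools, single arrays were above the rest for *Aldoa* in TSA(-) 7 (4.22, others 3.19 to 3.65), *Bhlhe22* in TSA(-) 5 (−5.39, others −9.65 to −8.58), *Dmrta2* in TSA(-) 6 (−6.53, others −9.86 to −8.55) and *Elf3* in TSA(-) 5 (1.18, others 0.32 to 0.72). The same was seen for *Gadd45g* in TSA(-) 2 (3.98, others 2.71 to 3.06), *Ifit3* in TSA(-) 1 (−4.69, others −9.8 to −8.54) and *Ndufv3* in TSA(-) 7 (−0.2, others −1.07 to −0.66). Further such genes were *Psma4* in TSA(-) 6 (2.8, others 2.1 to 2.39), *Taf7l* in TSA(-) 5 (−4.88, others −7.19 to −6.37) and *Xlr* in TSA(-) 4 (−0.28, others −1.57 to −1.0).
Single TSA(-) arrays were below the rest for *Dffb* in TSA(-) 3 (−3.08, others −1.93 to −1.08), *Erf* in TSA(-) 2 (0.26, others 1.02 to 1.5), *H1f8* in TSA(-) 1 (3.47, others 4.04 to 4.2) and *Mamdc2* in TSA(-) 5 (4.56, others 4.85 to 5.03). The same was seen for *Prpf4b* in TSA(-) 2 (0.59, others 1.4 to 2.06), *Rec8* in TSA(-) 5 (−0.46, others 0.63 to 1.45), *Rhox5* in TSA(-) 4 (−1.2, others 1.07 to 2.46) and *Zbp1* in TSA(-) 2 (−0.47, others 1.51 to 2.95).

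Among IVF pools, single arrays were above the rest for *Dffb* in IVF 3 (−6.04, others −8.78 to −7.84), *Dnmt3l* in IVF 5 (4.68, others 4.47 to 4.53), *Gabrb2* in IVF 5 (−3.31, others −8.71 to −7.27) and *Pknox2* in IVF 1 (−4.25, others −6.11 to −5.63). The same was seen for *Zic1* in IVF 2 (1.43, others −0.61 to 0.12).
Single IVF arrays were below the rest for *Nle1* in IVF 5 (−1.49, others −1.23 to −1.1), *Olig1* in IVF 5 (−0.72, others −0.18 to 0.05), *Ripk3* in IVF 6 (−9.32, others −4.04 to −2.23) and *Taf7l* in IVF 4 (−3.9, others −1.49 to −0.61). The same was seen for *Zfp809* in IVF 1 (3.47, others 4.11 to 4.34). *Ripk3* was not well above background on this array. *Dmrta2*, *Zic1* and *Olig1* were called lower and *Dffb*, *Gabrb2*, *Pknox2* and *Ripk3* higher in TSA(-) with these arrays included.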

How the results depend on the processing

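Of 178 called probes among the named genes, 119 kept direction and call in every setting and 24 lost the call without some 1 array. Against 3354 higher and 4065 lower probes, 2110 and 2581 were called with Tukey's HSD and 1775 and 2339 with slide as a fixed block, which was chosen after seeing the data. Normexp gave 6890 lower probes and kept 86.2% of the higher calls, and 40 of the probes called higher changed sign with it. Slide as a fixed block kept 50.6% of the higher and 53.8% of the lower calls. That fit left out the Cumulus arrays, and 3 of the 8 slides held both IVF and TSA(-) arrays. The cause of the lost calls was not tested. Leaving out each array gave 2943 (without IVF 6) to 3203 (without TSA(-) 2) higher and 3504 (without IVF 5) to 3958 (without TSA(-) 7) lower probes, and the difference in the share of probes well above background was −1.7 to −0.171 percentage points. Arrays of the same replicate number did not deviate together (correlations −0.04 to 0.07, 1 of 6 highest with its own number). With the replicate number as a block, 2916 probes were higher and 3508 lower.

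Among the named genes, signs that turned were all of small or uncalled differences, or came from scan days or slides with few arrays. Within scan day 5 (1 array a group), *Cd74* was at 0.0742, *Erf* at −0.137, *Pdk2* at −0.448, *Pgk1* at −0.0319, *Prpf4b* at −0.107 and *Zbp1* at −1.38. Within scan day 3, *Nr1h3* was at −0.015 and *Rhox2a* at 0.284, and within slide 5 they were at −0.459 and 0.722. With scan day as a block, *Dnmt1* was at 0.0095 and *Obox6* at 0.0218. With slide as a fixed block, *Eif1ad* was at −0.063, *Sema6b* at −0.277, *Spz1* at −0.0001 and *Vim* at 0.181. *Eif1ad* was at −0.102 with the replicate block, and *Xist* at −0.146 with normexp. With single arrays left out, *Dnmt1* ran from −0.114 to 0.007, *Obox6* from −0.109 to 0.0956 and *Spz1* from −0.0138 to 0.153. Dim probes are measured near background, and their fold depends on its correction.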

Other observations

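Imprinted genes moved in both directions. Of 38 tested, 7 were higher in TSA(-) and 5 lower (4 and 3 with slide as a fixed block), and the median was 0.05. *Phlda2*, a growth regulator of the placenta, had levels of 2.88 to 3.91 in IVF and −0.05 to 1.02 in TSA(-), and differed by −2.71 ± 0.25 (adjusted p in limma = 2.38e-09). *Nnat*, a membrane proteolipid of the brain, differed by −2.98 ± 0.42 and the CDK inhibitor *Cdkn1c* by −2.37 ± 0.40. *Impact*, a regulator of translation, was higher by 2.23 ± 0.33, and *Igf2r*, the receptor that clears IGF2, by 0.95 ± 0.13. *Igf2* was not called (0.44, adjusted p = 0.414).

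Core metabolic and translation lists had these counts, beside 10.3% higher and 13.5% lower over all named genes. Of 84 ribosomal protein genes, 8 were higher and 4 lower (21 and 4 with quantile normalization, by which 2056 of 16286 named genes were higher), and *Rpl39l*, a testis form, differed by −2.41 ± 0.24. Of 23 cholesterol synthesis genes, none was higher and 3 were lower, among them *Msmo1* with −1.15 ± 0.17. Of 17 glycolysis genes, 3 were higher and 1 was lower, with *Aldoa* at +1.09 ± 0.15. *Rec8*, the cohesin subunit of meiosis, was higher by 3.1 ± 0.25 among 50 kinetochore and cohesin genes, of which 5 were higher and 6 lower.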
